A study of Mus musculus with 10 samples.

Results

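The 10 genes described here are BCL2 family members with well-known roles in mitochondrial apoptosis: the antiapoptotic genes Bcl2, Bcl2l1, Mcl1 and Bcl2l2, the effectors Bax and Bak1, and the BH3-only genes Bbc3, Pmaip1, Bcl2l11 and Bid. They were chosen by name, and all 10 are among the 25078 genes of the count table. RNA-seq was performed on LSK cells, the lineage-negative, Sca-1-positive and c-Kit-positive bone marrow cells that contain stem cells and multipotent progenitors. CM mice (n = 5) carried a conditional Cbfb-MYH11 knock-in allele (Cbfb 56M/+) and the Mx1-Cre transgene. CM/miR-126Δ/Δ mice (n = 5) carried the same allele and transgene together with 2 floxed copies of miR-126. All 10 mice were on a C57BL/6 background, were induced with poly(I:C) as young adults and were analysed 6 weeks later, before leukemia. Mx1-Cre responds to interferon and recombines in many tissues, so that the deletion was not limited to LSK cells, and both groups also expressed the fusion gene, with no wild-type group in the series.

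BCL2 family proteins decide whether the outer membrane of the mitochondrion is breached. Antiapoptotic members hold the effectors BAX and BAK in check, BH3-only proteins report stress by binding the antiapoptotic members or the effectors, and active BAX and BAK form pores that release cytochrome c and start the caspase cascade. Blood stem cells depend on MCL1, and BCL2 inhibitors are used against acute myeloid leukemia. The comparison addresses whether mRNA of these genes differs in preleukemic LSK cells when miR-126 is deleted. It measures transcripts per gene, so splice forms with different activity, such as those of Bcl2l1, Mcl1 and Bcl2l11, were not separated.

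A mature strand of the deleted microRNA, miR-126a-3p, is shown with its seed, bases 2 to 8, in capitals. The letters of the seed define sites by which this strand could bind a member directly. Matches to the other strand, miR-126a-5p, were not searched, nor were sequences outside the 3′ untranslated regions. The mature strand miR-126a-3p lies on the plus strand of chr2:26591402-26591423 in GRCm38.p6 (RefSeq sequence, 5′ to 3′).
mmu-miR-126a-3p: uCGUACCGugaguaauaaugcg
The complement of seed bases 2 to 7, GGTACG, was searched on the transcript strand of the longest 3′ untranslated region of each member in the GENCODE M1 transcripts, an older annotation whose coordinates were not used. All 10 members had such a region, of 167 (Bax) to 5086 bases (Bcl2). Bcl2l11 and Bid each had 1 match, shown in capitals with the 12 bases on either side.
Bcl2l11: aggttctgttctGGTACGccacttccactt
Bid: actgggattacaGGTACGtattccatgccc
Among 9638 expressed genes with a 3′ untranslated region, members included, 3.58% had this 6-base match, where expressed means at least 1 RPKM (defined with the levels) on average in a genotype. The longer match CGGTACG, which adds base 8 and includes the shorter one, was in 0.259% of them and in 0 members. The other 8 members had no match to these letters in the regions searched. The match GGTACGA, which adds an A, was in 0.872% of those genes and in 0 members. The regions of Bcl2l11 and Bid had 4218 and 1670 bases, beside a median of 1178 bases for those genes. The shares were not adjusted for this length. A match describes letters only, and Bcl2l11 and Bid are compared between the genotypes with the others.

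Counts on genes totalled 23649233 to 33202086 per library, and 3 counts, taken as the smallest detectable level, corresponded to 0.0904 to 0.127 CPM (counts per 1000000, counting error only). Xist and Y-linked counts showed 6 female and 4 male mice, 3 and 2 in each genotype. The RNA was at 20.6 to 40.9 ng per µl in CM and 16.1 to 29.5 ng per µl in CM/miR-126Δ/Δ mice. CM/miR-126Δ/Δ mouse 3 had the lowest concentration and the highest share of counts on Rn45s, a ribosomal RNA gene (22.6%). The part of RNA amount in the values of the members was not tested. The gating genes were present in every mouse, with means in CM and CM/miR-126Δ/Δ of 859 ± 68.5 and 929 ± 128 CPM for Kit and of 57.3 ± 12.1 and 58.5 ± 6.23 CPM for Ly6a, which encodes Sca-1 (SD over 5 mice). Summed T cell markers (5 genes) stayed within 5.78 to 12.7 CPM and B lineage markers (6 genes) within 24.3 to 39.5 CPM over both genotypes. Erythroid markers summed to 5.91 to 44.2 CPM, with the 4 globin genes of the 6 at or under the smallest detectable level. Mast cell and basophil markers (4 genes) summed to 132 to 276 CPM. Megakaryocyte markers (4 genes) summed to 139.5 to 209 CPM in CM and 107 to 178 CPM in CM/miR-126Δ/Δ mice. Of these Itga2b had a lower mean in CM/miR-126Δ/Δ (log2 fold change −0.26, unadjusted p = 0.0693, adjusted p = 0.764 by edgeR). Pf4, Gp9 and Ppbp had higher means. Neutrophil markers (7 genes) summed to 74.4 to 243.7 CPM in CM and 66.9 to 417 CPM in CM/miR-126Δ/Δ mice. Of 8 stem and multipotent progenitor markers, Hlf (log2 fold change 0.31, unadjusted p = 0.00797, adjusted p = 0.661 by edgeR) and Mecom (0.24, unadjusted p = 0.0393, adjusted p = 0.748) had higher means in CM/miR-126Δ/Δ, and among the neutrophil markers Itgam (−0.35, unadjusted p = 0.0316, adjusted p = 0.746) had a lower one. The part of these marker differences in the values of the members was not tested. Mir126a, the precursor of the deleted microRNA, was counted 4, 5, 0, 2 and 3 times in the CM group and never in the other group, too few in long-RNA libraries to serve as a firm check of the labels.

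With genotype as the only term of the fit, no BCL2 family gene differed between the genotypes beyond the spread between mice. With edgeR's quasi-likelihood test over all 18747 genes with a count, 0 of the 10 members met the study's cutoffs (p at or below 0.01, fold change at least 1.5, mean RPKM at least 1), which 0.288% of all genes met. None had a Benjamini-Hochberg adjusted p under 0.05 (0.0107% of all genes), and 0 had an unadjusted p under 0.05 (6.61% of all genes). DESeq2 also gave 0 by each of these rules. The 2 genotypes overlapped for all 10 members, where 1.38% of expressed genes did not overlap. The median log2 fold change of the 9 expressed members, given throughout for CM/miR-126Δ/Δ against CM, was −0.14, beside −0.02 for expressed genes. Over all 10 members it was −0.15. Of the 9 expressed members, 7 had a log2 fold change below 0, a direction that 57.5% of those genes shared. The smallest unadjusted p among the members was 0.0975, for Bax. Leaving 1 mouse out of the edgeR fit brought the count at an unadjusted p under 0.05 to 1 in 4 cases. These were Bcl2l1 without CM mouse 3 (log2 fold change −0.20) or without CM/miR-126Δ/Δ mouse 2 (−0.21), Bid without CM/miR-126Δ/Δ mouse 3 (−0.20) and Bax without CM/miR-126Δ/Δ mouse 4 (−0.23). No adjusted p was below 0.436 in any of them. A term for a genotype difference that varied with sex had an unadjusted p of 0.0878 or more for each of the 10 members in the same kind of fit. With the mouse number that the genotypes share as a block, 3 members had lower means at an unadjusted p under 0.05. They were Mcl1, Bcl2l1 and Bid (adjusted p = 0.451, 0.463 and 0.553 by edgeR). In that fit 4.62% of all genes had a lower mean at that p.

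The spread between mice was small enough to bound most of these differences. For 8 of the 10 members the 95% interval of the fold change lay within 1.5-fold in both directions, as it did for 86.7% of expressed genes. The 2 exceptions were Mcl1, whose interval reached down to 0.655-fold, and Pmaip1, whose interval ran from 0.362-fold to 1.17-fold. Neither of these intervals extended above 1.5-fold, so that a rise of that size lay outside the interval of every member.

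**Figure D1:**
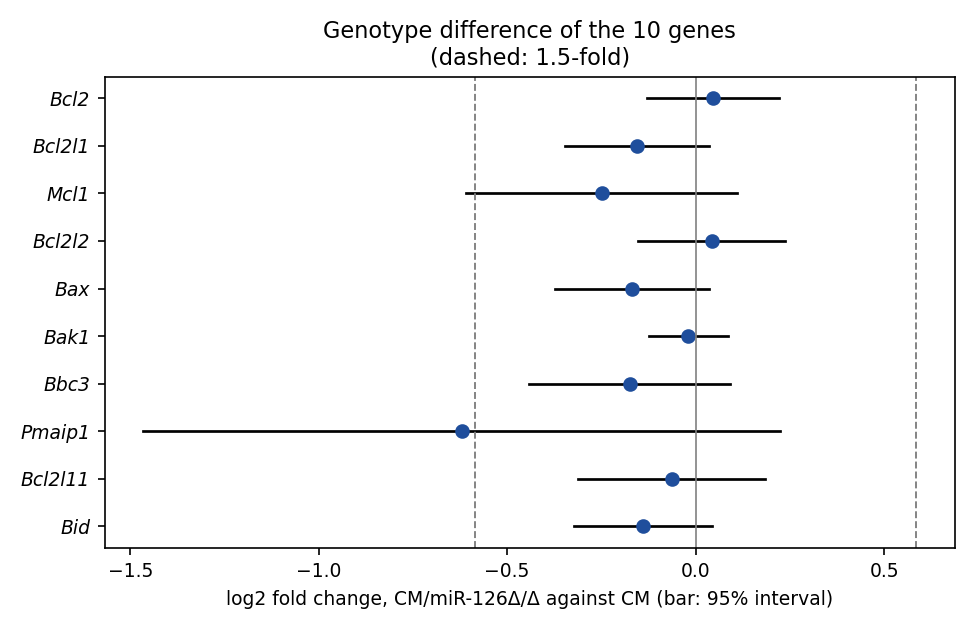
Log2 fold change of each gene for CM/miR-126Δ/Δ (n = 5) against CM (n = 5) on the horizontal axis, with the 95% interval from edgeR as a bar and 1.5-fold in either direction as dashed lines. Every interval includes 0, and those of Mcl1 and Pmaip1 cross the lower dashed line.

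Among the antiapoptotic genes, Bcl2 and Bcl2l2 had nearly equal means in the genotypes, while Bcl2l1 and Mcl1 had lower means in CM/miR-126Δ/Δ that did not pass the edgeR test with genotype as its only term. Bcl2, the founding member of the family, lies on the minus strand of chr1:106538176-106714290 in mm10. It was at 136, 151, 127, 123 and 119 CPM in CM mice 1 to 5 and at 146, 137, 152, 125 and 118 CPM in CM/miR-126Δ/Δ mice 1 to 5. The highest and lowest of the 10 values both came from CM/miR-126Δ/Δ mice, and the ranges overlapped almost completely. In log2 terms the fold change of Bcl2 was 0.05 (standard error, SE, 0.0814, Benjamini-Hochberg adjusted p = 0.912 by edgeR), with an interval of 0.915-fold to 1.16-fold. After the trend of each library with gene length was removed, the Bcl2 value was −0.01.

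Mcl1, which encodes a short-lived protein needed for survival of blood stem cells, lies on the plus strand of chr3:95658721-95663178. It was at 393, 515, 283, 379 and 402 CPM in CM mice and at 369, 361, 237, 432 and 259 CPM in CM/miR-126Δ/Δ mice. CM mouse 2 was the highest of all, and 2 CM/miR-126Δ/Δ mice, 3 and 5, were below every CM mouse. Group means were 394 ± 82.5 CPM for CM and 332 ± 81.4 CPM for CM/miR-126Δ/Δ (SD over 5 mice). This difference, −0.25 in log2 (SE 0.168), did not pass the edgeR test (adjusted p = 0.765) or a two-sided exact permutation test of the 10 mice (p = 0.238).

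Bcl2l1, the gene of BCL-XL, lies on the minus strand of chr2:152758732-152831728. It was at 40.2, 40.7, 33.3, 42.2 and 41.2 CPM in CM mice and at 33.5, 40.4, 30.1, 38.0 and 35.4 CPM in CM/miR-126Δ/Δ mice. Each CM/miR-126Δ/Δ value was below the CM median, but CM mouse 3 was as low as the lower CM/miR-126Δ/Δ mice. For Bcl2l1 the log2 fold change was −0.16 (SE 0.0887, adjusted p = 0.765 by edgeR; exact permutation p = 0.127). It overlaps Cox4i2 on the opposite strand, a gene with 27.2 counts per library on average where Bcl2l1 had 1029.

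Bcl2l2, the gene of the antiapoptotic protein BCL-W, lies on the plus strand of chr14:54883425-54888234. Values of 25.2, 27.4, 31.4, 23.6 and 26.6 CPM in CM mice stood beside 27.8, 24.5, 26.9, 27.7 and 31.2 CPM in CM/miR-126Δ/Δ mice, and no CM/miR-126Δ/Δ mouse was outside the CM range. Bcl2l2 thus had a log2 fold change of 0.04 (SE 0.0913, adjusted p = 0.932 by edgeR), with an interval of 0.899-fold to 1.18-fold.

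The genes of the effectors BAX and BAK, either of which can form the pore, did not pass the edgeR test over all 10 mice. Bax lies on the minus strand of chr7:45461695-45466898 and was at 21.0, 17.9, 18.8, 20.1 and 18.2 CPM in CM mice and at 16.4, 15.3, 16.6, 20.6 and 16.4 CPM in CM/miR-126Δ/Δ mice. In 4 of the 5 CM/miR-126Δ/Δ mice Bax was below every CM mouse, and mouse 4 was above 4 of the 5 CM mice. Over all 10 mice the log2 fold change of Bax was −0.17 (SE 0.0954, adjusted p = 0.765 by edgeR; exact permutation p = 0.0952), with an interval of 0.772-fold to 1.02-fold. Without CM/miR-126Δ/Δ mouse 4 the Bax value was −0.23 (unadjusted p = 0.0180, adjusted p = 0.436 by edgeR). That mouse also had the highest neutrophil markers of all 10, summing to 417 CPM with S100a8 at 72.2 CPM, where the other 9 mice had sums of 66.9 to 243.7 CPM, and all 7 genes of that list were detected. Itgam, of the same list, was at 68.4 CPM in that mouse, below the 70.4 to 133 CPM of the CM mice. The part of these cells in the Bax value was not tested, and in bulk LSK samples fewer cells of a type and less RNA per cell cannot be told apart.

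Bak1 lies on the minus strand of chr17:27019812-27028627. It was at 89.9, 84.3, 88.4, 93.2 and 92.1 CPM in CM mice and at 87.4, 84.7, 92.7, 86.2 and 90.9 CPM in CM/miR-126Δ/Δ mice, so that all CM/miR-126Δ/Δ values fell within the CM range. A log2 fold change of −0.02 (SE 0.0491, adjusted p = 0.938 by edgeR) came with the narrowest interval of the 10 members, 0.917-fold to 1.06-fold. Ggnbp1 on the opposite strand overlaps Bak1, with 31.3 counts per library on average against 2421 for Bak1.

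All BH3-only members had lower mean CPM in CM/miR-126Δ/Δ, by amounts that did not pass the edgeR test with genotype as its only term. Bbc3, the gene of PUMA and a direct target of p53, lies on the plus strand of chr7:16309583-16318334. Its values were 10.0, 12.8, 8.39, 9.48 and 10.9 CPM in CM mice and 8.42, 8.88, 8.45, 10.6 and 9.35 CPM in CM/miR-126Δ/Δ mice. The lowest of the 10 values was from CM mouse 3, and no CM/miR-126Δ/Δ mouse was outside the CM range. Bbc3 had a log2 fold change of −0.18 (SE 0.124, adjusted p = 0.765 by edgeR).

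Pmaip1, the gene of NOXA, which binds MCL1, lies on the plus strand of chr18:66458604-66465558 and was the least abundant member. It had 70, 118, 58, 38 and 47 counts in CM mice and 42, 45, 32, 55 and 8 counts in CM/miR-126Δ/Δ mice, or 1.28 to 3.90 CPM and 0.329 to 2.18 CPM. CM mouse 2 stood highest and CM/miR-126Δ/Δ mouse 5 lowest, while the other 8 mice were mixed. Its log2 fold change, −0.62, was the largest in size of the 10 and had the largest SE, 0.394 (adjusted p = 0.765 by edgeR; exact permutation p = 0.238).

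Bcl2l11, the gene of BIM, which responds to loss of cytokine signals, lies on the plus strand of chr2:128126038-128162547. It was at 46.2, 67.9, 44.3, 44.9 and 50.5 CPM in CM mice and at 53.7, 54.3, 44.6, 49.1 and 41.1 CPM in CM/miR-126Δ/Δ mice. CM mouse 2 lay apart from all others, and without it the direction turned, from a log2 fold change of −0.06 (SE 0.116, adjusted p = 0.913 by edgeR) to 0.06. Bid, whose product links death receptors and caspase 8 to the mitochondrion, lies on the minus strand of chr6:120893119-120916824. Its values were 44.3, 40.8, 47.4, 49.3 and 42.7 CPM in CM mice and 34.7, 37.1, 47.3, 42.9 and 42.0 CPM in CM/miR-126Δ/Δ mice. CM/miR-126Δ/Δ mice 1 and 2 were below every CM mouse, and the other 3 were within the CM range. The log2 fold change of Bid was −0.14 (SE 0.0858, adjusted p = 0.765 by edgeR; exact permutation p = 0.167). The members that carry the 6-base miR-126-3p match, Bcl2l11 and Bid, thus gave no value above that of CM that passed a test, and the upper bounds of their intervals were 1.14-fold and 1.03-fold.

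Levels were compared between genes as RPKM (reads per 1000 bases of exon and 1000000 reads, with TMM-scaled library sizes). Mcl1 was the most abundant member, at a mean of 104 RPKM over the 10 mice, higher than 97.2% of expressed genes. Bak1 followed at 44.0 RPKM, and in each mouse it was below Mcl1 and above every other member. Bid (22.6 RPKM), Bax (20.9 RPKM) and Bcl2 (18.2 RPKM) formed a middle group whose ranges overlapped from one gene to the next, with Bid above Bax in 7 of 10 mice and Bax above Bcl2 in 7 of 10. Bcl2l1 (11.5 RPKM) was below Bcl2 and above Bcl2l2 (7.87 RPKM) in all 10 mice. Bcl2l2 and Bcl2l11 (6.96 RPKM) overlapped, and Bbc3 (4.92 RPKM) was below Bcl2l11 in each mouse although their ranges touched. Pmaip1, at 0.697 RPKM, was 7.06-fold below Bbc3 and did not reach a mean of 1 RPKM in either genotype, so it could not have met the study's cutoffs. The order depends on length: by CPM, Bcl2, with 7349 bases of exon, was the second most abundant member, and 5 of the 10 members took another rank.

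**Figure D2:**
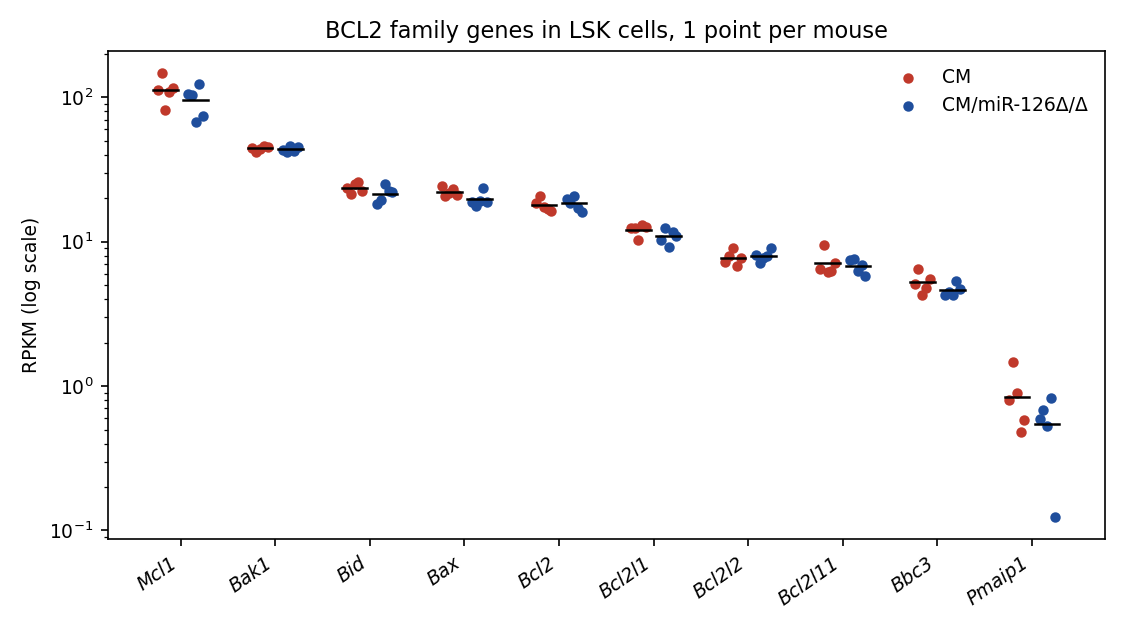
RPKM of each gene on a log axis, genes ordered by their mean, with 1 point per mouse for CM (red, n = 5) and CM/miR-126Δ/Δ (blue, n = 5) and a bar at each mean. The genes span 0.697 RPKM (Pmaip1) to 104 RPKM (Mcl1), and the genotypes overlap for each gene.

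Ratios within a library do not depend on its scaling and are given as a description. Of the summed RPKM of the 4 antiapoptotic members, Mcl1 made up 74.5% ± 3.46 in CM and 71.1% ± 5.12 in CM/miR-126Δ/Δ mice (SD over 5 mice). The Bax to Bcl2 ratio of RPKM, a common measure of the balance between death and survival signals, was 1.31, 1.00, 1.25, 1.38 and 1.29 in CM mice and 0.953, 0.945, 0.927, 1.39 and 1.18 in CM/miR-126Δ/Δ mice. CM/miR-126Δ/Δ mice 1, 2 and 3 were below every CM mouse, and mouse 4 was the highest of all. Bak1 exceeded Bax in every mouse, by 1.84-fold to 2.18-fold in CM and 1.80-fold to 2.39-fold in CM/miR-126Δ/Δ.

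The members differed widely in how much they varied between mice of one genotype. Bak1 was the steadiest, with a standard deviation of 0.0556 in log2 CPM within genotypes, lower than in all but 1.81% of expressed genes, whose median was 0.140. Mcl1 varied more, with a standard deviation of 0.339 that placed it above 88.4% of those genes, and Bcl2l11 stood at 0.218. Bcl2 (0.144), Bcl2l1 (0.151), Bid (0.148), Bcl2l2 (0.141) and Bax (0.133) were near the median. Pmaip1 had the largest value, 0.817, with as few as 8 counts in a library. The Mcl1 values rest on 5449 to 15579 counts.

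Over the 10 mice, with both genotypes pooled, the highest correlation of log2 CPM was that of Mcl1 with Bbc3 (Pearson r = 0.78, permutation p = 0.00818; Spearman rho = 0.83, p = 0.00458), but of the 45 pairs of members 0 passed an adjusted p under 0.05 (adjusted p = 0.126 for this pair, Benjamini-Hochberg over the 45 pairs, permutation tests with 100000 resamples). Without the 2 mice farthest from the Mcl1 median r was 0.89, and among the 6 female mice it was 0.82 (exact permutation p = 0.0389), with too few male mice for a value. Mcl1 and Bcl2l11 had r = 0.75 (permutation p = 0.0105, adjusted p = 0.126), and Mcl1 and Bcl2l1 r = 0.76 (permutation p = 0.0112, adjusted p = 0.126). The latter was r = 0.48 without the 2 mice farthest from the Bcl2l1 median (exact permutation p = 0.250). Without the 2 mice farthest from the Mcl1 median, Mcl1 and Bcl2l11 had r = 0.70 (exact permutation p = 0.0776). Bak1 and Bcl2l11 had r = −0.73 (permutation p = 0.0108, adjusted p = 0.126). This was −0.44 without the 2 mice farthest from the Bak1 median (exact permutation p = 0.272). Leaving out the outermost mice narrows the range, which can itself weaken r. These values therefore do not show what a correlation rests on. Over all 45 pairs, 20 correlations were positive and the median r was −0.02, beside 0.01 for pairs of expressed genes. Bcl2 and Bax had r = −0.31 (permutation p = 0.369).

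**Figure D3:**
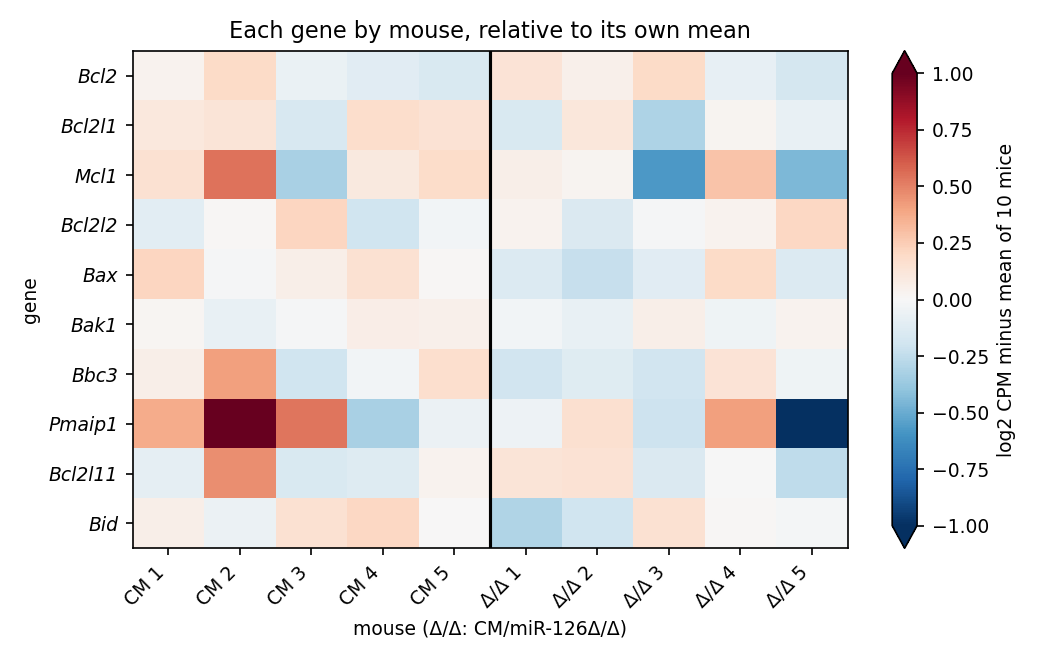
Log2 CPM of each gene (rows) in each mouse (columns) minus its mean over the 10 mice, with CM to the left and CM/miR-126Δ/Δ (Δ/Δ) to the right of the line and colours ending at 1 in either direction. CM mouse 2 is high for Mcl1, Bbc3, Pmaip1 and Bcl2l11, CM/miR-126Δ/Δ mouse 3 is low for Mcl1 and Bcl2l1, and Bak1 is even across the mice.

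The rest of the pathway was read from 5 lists of 50 further genes, of which 48 had a count and 41 were expressed. None of the 48 met the study's cutoffs or had an adjusted p under 0.05 in the edgeR test with genotype as its only term. In that fit none had an unadjusted p under 0.05. At that p DESeq2 gave 2 genes, and edgeR with the mouse number as a block gave 3. Among the other BCL2 family genes, 7 of 16 were expressed, with a median log2 fold change of −0.02 for these 7. Bnip3l (22.2 RPKM), a mitophagy receptor, and Bcl2l12 (21.7 RPKM) were at about the level of Bax, whereas the BH3-only genes Bad and Bmf were at 9.22 and 2.10 RPKM. Bok, an effector related to Bax, was at 0.796 RPKM and the antiapoptotic gene Bcl2a1b at 0.586 RPKM, although near-identical Bcl2a1 copies can share reads. The smallest p in this list was that of Bcl2l10 (unadjusted p = 0.0526, adjusted p = 0.759 by edgeR), which had 0 to 7 counts per library.

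Downstream of the pore, the 11 apoptosome and caspase genes had a median log2 fold change of −0.03. Apaf1, the scaffold of the apoptosome, had means of 121 ± 8.36 and 120.1 ± 6.57 CPM in CM and CM/miR-126Δ/Δ (SD over 5 mice). Dffb, the caspase-activated DNase, had the smallest p of this list (log2 fold change −0.19, unadjusted p = 0.0557, adjusted p = 0.764 by edgeR). All 7 genes of mitochondrial release and channels had lower means in CM/miR-126Δ/Δ, a direction that 57.5% of expressed genes shared. Their median was −0.05, beside −0.02 for expressed genes. The smallest p was that of Vdac2, an outer membrane channel that binds BAK (−0.11, unadjusted p = 0.0523, adjusted p = 0.758 by edgeR).

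The 5 inhibitors of apoptosis had a median log2 fold change of 0.02. The smallest p among them was that of Birc6, a very large ubiquitin ligase (650 ± 55.8 CPM against 755 ± 102 CPM in CM/miR-126Δ/Δ; log2 fold change 0.22, unadjusted p = 0.0543, adjusted p = 0.764 by edgeR), and Xiap, which inhibits caspases directly, was at 156 ± 11.6 and 165 ± 16.3 CPM. Of the 11 regulators of the members, with a median of 0.01, Usp9x, a deubiquitinase that stabilises MCL1, had the smallest p (log2 fold change 0.17, unadjusted p = 0.0840, adjusted p = 0.765 by edgeR). Trp53, the gene of p53, which activates Bbc3, Pmaip1 and Bax, had group means of 175 ± 10.5 (CM) and 166 ± 13.3 CPM.

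**Figure D4:**
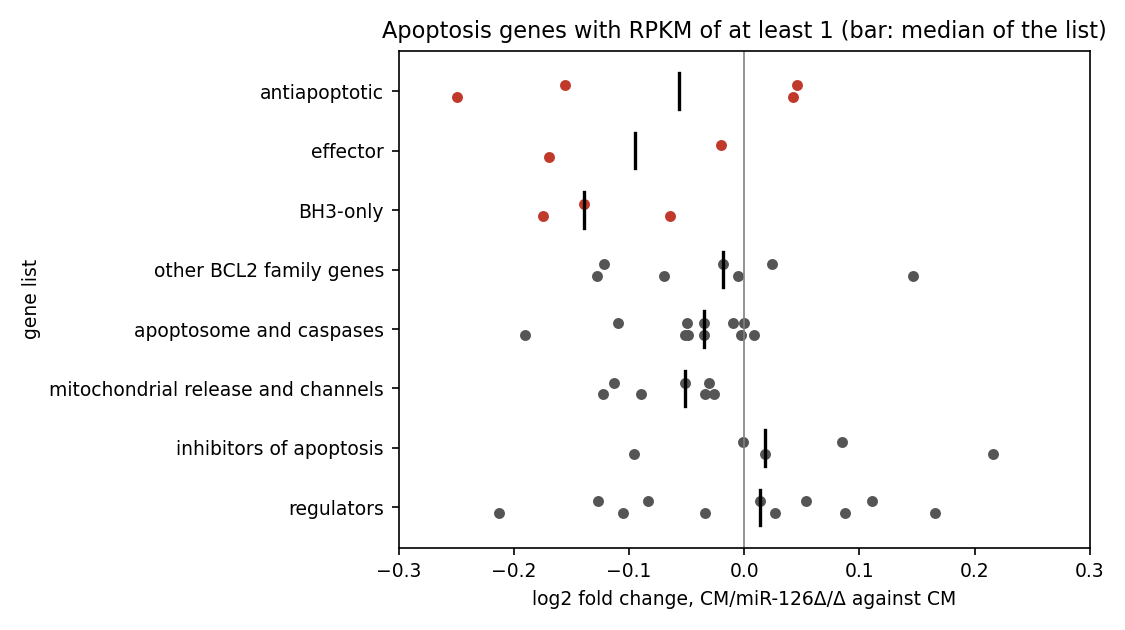
Log2 fold change for CM/miR-126Δ/Δ (n = 5) against CM (n = 5) of each expressed gene, grouped by list, with the BCL2 family members described here in red, other genes in grey and the median of each list as a bar. The points lie between −0.25 (Mcl1) and 0.22 (Birc6), and none had an unadjusted p under 0.05 by edgeR with genotype as the only term.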

How the data were processed

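LSK cells gave 1 library per mouse (5 of each genotype), grouped and numbered by the sample labels. The authors prepared libraries with a stranded kit after ribosomal RNA depletion, trimmed the reads, aligned them to mm10 with TopHat2 and assigned them to RefSeq genes by HTSeq (0.6.1p1 in the submitters' processing notes). The deposited values used are raw counts per gene, with total exon lengths. Whether counting used strand is not given in the sources used here. A second deposited table of normalized values was not used.

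The 18747 genes with a count in any library were fitted with edgeR 4.0.16 (TMM, glmQLFit and glmQLFTest in the edgeR 3 form, genotype as the only term) in R 4.3.3, with Benjamini-Hochberg adjustment over all of them. Each standard error is the log2 fold change over the root of its F statistic. CPM and RPKM use TMM-scaled library sizes, and log2 CPM a prior count of 2. Single genes were also compared by exact permutation of the 10 mice (scipy 1.17.1). DESeq2 1.42.0 was an alternative, and both tools were tested on simulated data. P-values for the genotypes set their difference against the spread between these mice.

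The members and gene lists were chosen with earlier results of these data known. All members are named, and of each other list the genes with an unadjusted p under 0.05 or else the one with the smallest p. Other genes of these lists (Bnip3l, Bcl2l12, Bad, Bmf, Bok, Bcl2a1b, Apaf1, Xiap and Trp53) are named for their role and were chosen after their values were seen. Alternatives were RLE factors, DESeq2, filterByExpr, a fit of genes whose mean RPKM reached 1, robust dispersions, the edgeR 4 form, a block for the replicate number, a covariate for sex, removal of the length trend, Rn45s left out, no RPKM cutoff and each mouse left out.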

Additional observations from a re-analysis of the deposited data

Results flagged for a closer look

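In each genotype the CPM of each member was searched for a mouse whose gap to its nearest neighbour exceeded 0.71 of the whole range, Dixon's 5% limit for 5 values. Of 20 groups searched 3 held such a mouse, where chance gives about 1 in 20. Bcl2l1 was at 33.3 CPM in CM mouse 3, with the other CM mice at 40.2 to 42.2 CPM. Bax was at 20.6 CPM in CM/miR-126Δ/Δ mouse 4, with the others at 15.3 to 16.6 CPM. Bcl2l11 was at 67.9 CPM in CM mouse 2, with the others at 44.3 to 50.5 CPM.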

How the results depend on the processing

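In 22 alternatives 0 members met the study's cutoffs, and the smallest adjusted p of a member was 0.436 (Bax without CM/miR-126Δ/Δ mouse 4). The number of members with an interval within 1.5-fold was 8 to 9, and 0 pairs of members passed the correlation threshold in the 11 alternatives run for it. Over all genes 54 met the cutoffs, and 111 without the RPKM requirement. Leaving out 1 mouse gave 33 (without CM/miR-126Δ/Δ mouse 5) to 127 (without CM mouse 3) such genes, 0 to 1 members and 0 to 5 other apoptosis genes with an unadjusted p under 0.05. The 0 other apoptosis genes at that p became 1 with RLE factors, filterByExpr, robust dispersions, the length trend removed or Rn45s left out, 2 with genes of RPKM of at least 1, sex as a covariate or DESeq2, and 3 with the edgeR 4 form. The causes were not tested.

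Mice share the numbers 1 to 5 across genotypes, which the labels do not explain. Mice 1 to 3 were female and mice 4 and 5 male in both genotypes, so same-numbered mice also shared sex, unlike some of the other pairs. Same-numbered mice had consecutive sample numbers in the column names of the count table, without a stated reason. Deviations of same-numbered mice correlated at −0.0035 to 0.43 (mean 0.211) over 13442 genes, beside a mean of −0.0535 for other pairs of mice, and 5 of 10 libraries correlated best with their own number. Since 4 of 5 pairs, not all, were above 0.1, the numbers were not taken as pairs, which leaves a pairing possible. With the replicate number as a block 115 genes met the cutoffs. In that fit 3 of the 10 members, Mcl1, Bcl2l1 and Bid, had an unadjusted p under 0.05 by edgeR, all with lower means in CM/miR-126Δ/Δ. Of the 48 other apoptosis genes with a count, 3 reached that p. Birc6 (log2 fold change 0.21) and Usp9x (0.16) had higher means and Dffb (−0.19) a lower one. Their adjusted p by edgeR was 0.249, 0.418 and 0.541. Over all genes the share at that p was 8.89%, and 4.62% with a lower mean. The adjusted p by edgeR was 0.451 for Mcl1, 0.463 for Bcl2l1 and 0.553 for Bid. With the length trend removed as well these were 113 genes, 2 members and 1 other gene.

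The direction turned where values were near 0. With the length trend removed Bcl2 was at −0.0117 (−0.013 with the replicate block) and Bak1 at 0.0303 (0.0298) in log2 fold change. Leaving out 1 mouse moved Bcl2l2 from −0.0056 to 0.118, Bak1 from −0.041 to 0.0071 and Bcl2l11 from −0.107 to 0.0636. Pmaip1, with 8 to 118 counts, was the member with the least depth.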
